A study of Solanum tuberosum with 6 samples.

Results

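The leaf response measured here is that of potato (Solanum tuberosum, cultivar PS3) 3 days after a single watering with NaCl. It comprises the clones with a ratio on at least 2 of the 3 day 3 arrays, which were 9072 of the 10499 clones in the table, and for 6735 of them the deposited table names a gene of similar sequence, in many cases from other plants. Plants of the salt group had received 75 mL of 150 mM NaCl at day 0, and plants of the control group the same volume of tap water. All plants came from in vitro plantlets of the one cultivar and had been acclimatized in soil and sand for 2 months, and the first and second leaves were taken. Each two-colour array set leaf RNA of salt-watered plants against that of control plants of the same day and replicate, with salt in Cy3 on replicates 1 and 3 and in Cy5 on replicate 2. For comparison, 3 arrays of the same layout from another set of plants covered day 1. All values are log ratios, so no clone's level in either group is known and the leaf identity of the samples could not be checked against marker genes. In whole leaves, fewer cells of a type and less RNA per cell cannot be told apart.

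Ratios are read as salt over control. That direction is likely and is not stated in the files: the labels call the control the reference, while the column titles name control before salt. On day 3 the array with swapped dyes correlated positively with both others (r of 0.475 and 0.639 across clones, which are not independent replicates). This bears on whether the arrays share 1 orientation and cannot show which. A strong dye effect on each clone could give the same correlation, so neither the shared orientation nor the direction is settled. If all ratios ran the other way, every rise below would be a fall. With the sign of replicate 2 turned on both days, 0 clones passed on day 3 with limma, and 251 had an unadjusted p under 0.05. The base of the logarithm is taken as 2.

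As background, NaCl in soil first makes water harder to take up, and sodium and chloride later build up in leaves. Plants meet this with abscisic acid signalling, calcium signals, ion transport into the vacuole and slower growth, in which water channels and wall enzymes take part. Potato leaves also make steroidal glycoalkaloids such as solanine and chaconine, which are built from cholesterol on the sterol pathway, and proteinase inhibitors, which act against insect digestion and are induced through jasmonate.

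The 3 day 3 arrays measured between 7867 and 10381 clones each, with medians between 0.004 and 0.03, and correlated with r between 0.475 and 0.639. Replicate 1 stood apart: it correlated with the day 1 arrays at r between -0.086 and 0.031, while the range was 0.081 to 0.436 for replicate 2 and 0.259 to 0.486 for replicate 3. Of the 7709 clones measured on all 3 day 3 arrays, 2850 had 1 sign throughout. Replicate 1 was the odd one out in 1977, replicate 2 in 1530 and replicate 3 in 1320. Only 3 arrays per day limit the precision of every value. In what follows, the values of a clone are log2 ratios of replicates 1, 2 and 3 in that order, and the estimate after them, with its SE, comes from a fit of all 6 arrays with a dye term, so it can differ from their plain mean.

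Of 9032 clones tested, 400 were lower in salt than in control on day 3 (4.43%) and 174 were higher (1.93%) at an adjusted p under 0.05 with limma, 6.36% together. Among the lower clones 161 had an estimate beyond 1 on the log2 scale and 47 beyond 2, and among the higher clones 42 and 5. Every one of the 400 lower clones was below 0 on each array that measured it, and 171 of the 174 higher clones were above 0. The medians of the lower clones were -0.92, -0.82 and -0.82 on replicates 1, 2 and 3, and those of the higher clones 0.70, 0.81 and 0.69. The calls were made on these same ratios, so the common signs and these medians largely follow from the selection. The number of calls fell most without replicate 2, the array with the dyes swapped, to 109 lower and 16 higher clones. Without replicate 1, 602 and 323 passed, and without replicate 3, 303 and 146. With replicate 2 left out, both remaining day 3 arrays had salt in Cy3, so the dye term came from the day 1 arrays alone. The day 3 estimates are then less precise, and how much of the loss this accounts for was not tested. Leaving out an array of day 1 also moved the higher clones, to 100 without replicate 1 and 106 without replicate 2. An exception to the common sign was a lipid desaturase-like clone (STMEN30), called higher with 0.04, 1.20 and -0.13. No annotation was given for 84 of the lower and 33 of the higher clones. Several clones of the array can stem from 1 gene. Of 1259 assembled contigs that held at least 2 tested clones, 132 held a called clone, and in 59 of these every clone was called in 1 direction, while 0 held calls in both directions.

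**Figure D1:**
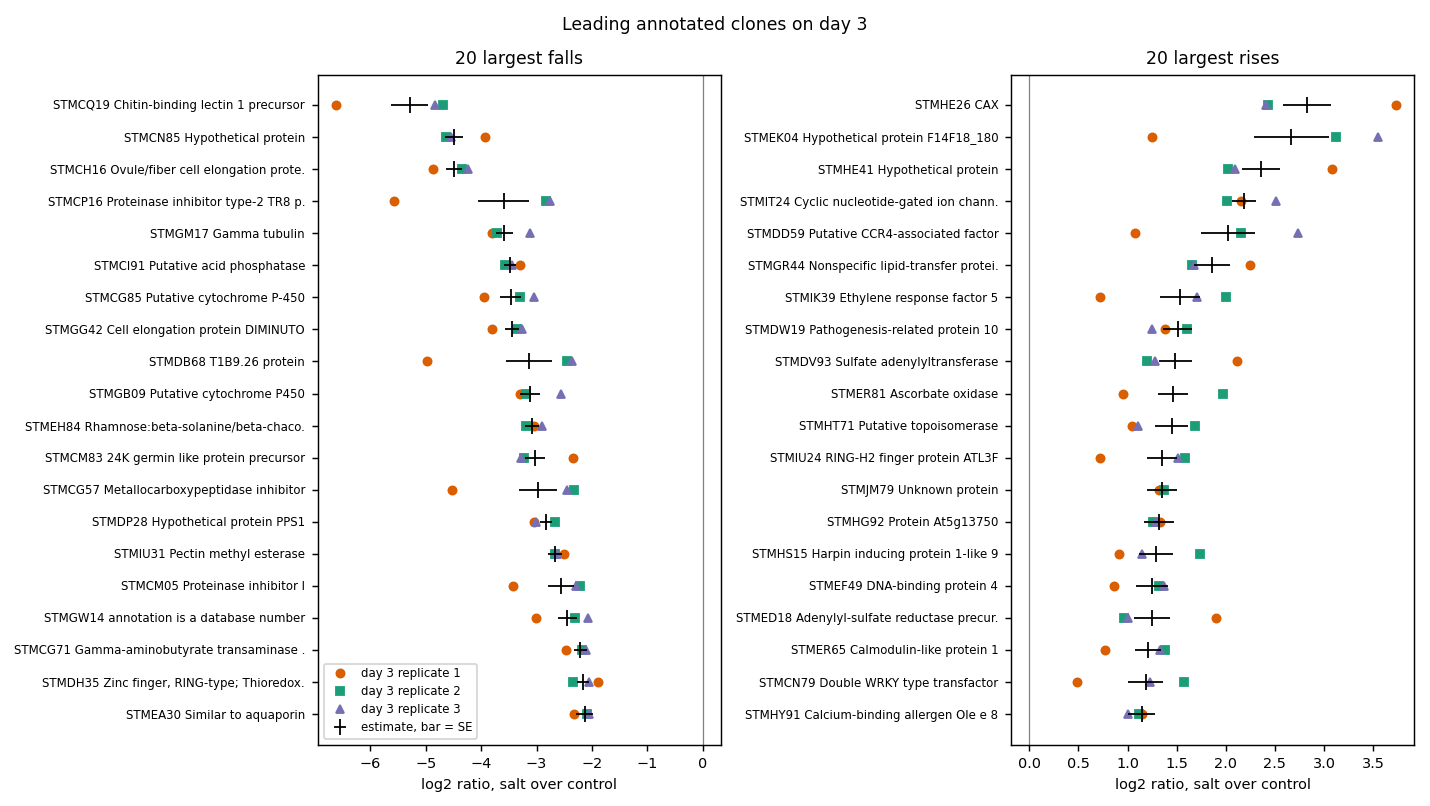
Log2 ratios (salt over control, horizontal axis) of the 20 annotated clones with the largest falls (left) and the 20 with the largest rises (right) among clones called on day 3. Only the clone with the smallest p per annotation was ranked, so a larger change in another clone of the same annotation is not shown. Coloured symbols are the 3 day 3 arrays and black marks the estimate with its SE. The falls run from -5.29 to -2.13 and the rises from 2.83 to 1.15.

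Several enzymes of sterol synthesis fell on day 3, and the other clones of their list were not called. Of 36 tested clones of the sterol and isoprenoid list, 13 were lower and 0 higher (18 and 0 at an unadjusted p under 0.05). That is 36.1% lower, against 4.43% of all tested clones. The list's median was -0.31 (all tested clones 0.01), with -0.39, -0.30 and -0.43 on the 3 arrays. The strongest was DIMINUTO (STMGG42), whose Arabidopsis counterpart reduces the sterol side chain, with -3.80, -3.36 and -3.27. Its estimate was -3.44 (SE 0.13, adjusted p = 5.0e-06), and no array lay above -3.27. A clone annotated as the cotton fibre protein Ghfe1 (STMCH16), with -4.87, -4.35 and -4.25, shares an assembled contig with STMGG42, so both may report 1 gene. A second clone named DWARF1/DIMINUTO (STMEJ44) lies on another contig and fell far less, by 0.56.

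Falls occurred at successive steps of the pathway. Squalene monooxygenase (STMEL05), which makes the epoxide that is later cyclised, had -1.86, -1.53 and -1.46 and an estimate of -1.58 (SE 0.12). Cyclopropyl isomerase (STMDP65), which opens the ring of the plant sterol precursor, was at -1.38, and obtusifoliol 14alpha-demethylase (STMEB65), a P450 of the next step, had -2.10, -1.78 and -2.08 with an estimate of -1.91. Delta14-sterol reductase was lower in both of its clones, which share a contig (STMFA04 at -1.18 and STMCS13 at -1.08). The delta8,delta7-isomerase was lower in 3 of 3 clones that share a contig, from -1.22 (STMCQ53) to -1.08. The C5 desaturase (STMEA40) had -2.28, -1.98 and -1.96. Every day 3 array of the clones named here was below 0. The isomerases, the demethylase and a hydroxysteroid dehydrogenase were not matched by the list's words and were added after their values were seen, which makes the count 18 lower and 0 higher of 42 (23 and 0 unadjusted). These 18 clones carry 12 different annotations.

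The steps before and beside these moved less. Farnesyl pyrophosphate synthase (STMCE79, -0.76), which supplies the carbon chain, and mevalonate diphosphate decarboxylase (STMEG54, -0.70) fell by less than 1. Of 5 clones of the sterol C-methyltransferase that leads to plant sterols 3 fell, with STMDT19 at -0.81, and these 3 share a contig. Leaving out replicate 2 of day 3 left 4 lower clones in the list of 36, and leaving out replicate 1 left 13. Of the 36 clones 5 were lower on day 3 than on day 1 and 1 was higher. With the clones added after their values were seen, the counts were 10 and 1 of 42. The day 3 minus day 1 difference was -3.13 for STMGG42, -1.64 for STMEA40, -1.47 for STMDP65 and -1.42 for STMCQ53, each past an adjusted p of 0.05, whereas for STMDT19 it was -0.06 (adjusted p = 0.879).

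**Figure D2:**
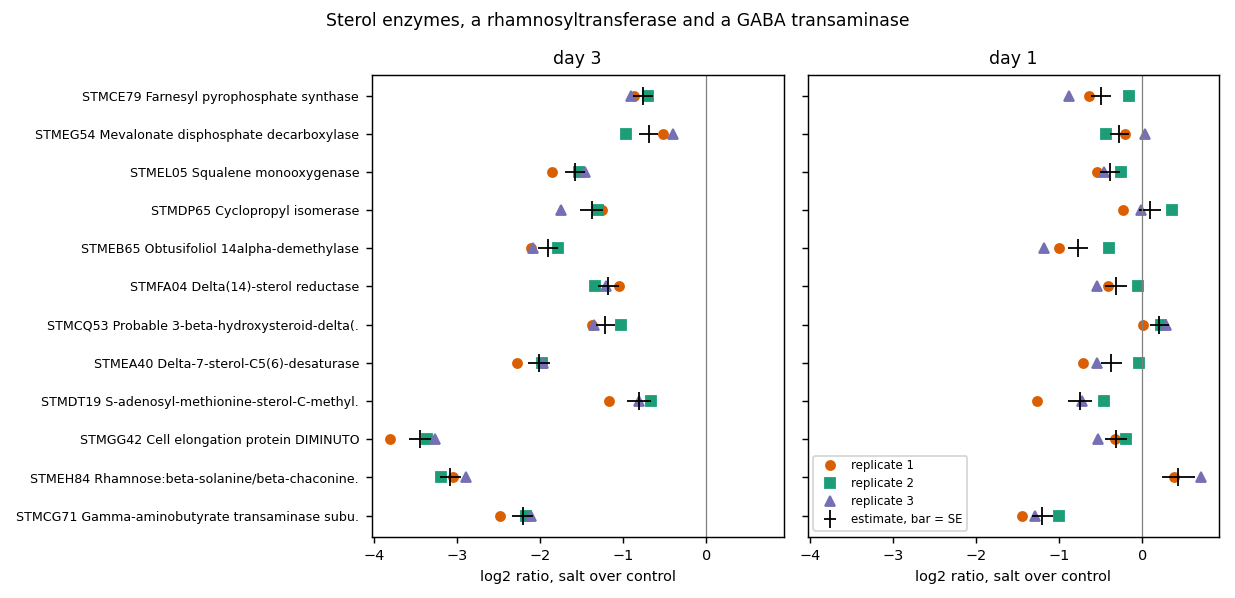
Log2 ratios (salt over control) of 10 sterol enzyme clones, a rhamnosyltransferase and a GABA transaminase on the arrays of day 3 (left) and day 1 (right), with symbols for replicates 1 to 3 and black marks for the estimate with its SE. On day 3 every point lies below 0 and the 10 sterol enzymes run from -3.44 to -0.70, while on day 1 the estimates lie between -0.77 and 0.43, apart from STMCG71 at -1.20.

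An enzyme of glycoalkaloid synthesis fell as well. The rhamnosyltransferase that adds the last sugar to solanine and chaconine in potato (STMEH84) had -3.04, -3.19 and -2.89, an estimate of -3.08 (SE 0.13, adjusted p = 1.54e-05), and was at 0.43 on day 1. The 3 tested clones named gamma-aminobutyrate transaminase isozyme 2, all on 1 contig, lay between -2.21 (STMCG71) and -2.02, and were below 0 on day 1 too, with a median of -0.88. The name is that of an enzyme that degrades the amino acid GABA, and an aminotransferase of this family acts in glycoalkaloid synthesis in potato and tomato.

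Cytochrome P450 monooxygenases, a large family of oxidising enzymes in hormone and defence metabolism, held 12 lower and 1 higher of 65 tested clones. These shares were 18.5% and 1.5%, against 4.43% and 1.93% of all tested clones. The 7 lowest carry no subfamily name, and several share contigs. STMCG85 (-3.95, -3.30 and -3.05) lies on 1 contig with 2 others, the 3 between -3.52 and -3.12, and on another with STMDE16 (-2.33, -2.68 and -1.71). On their own contigs were STMEA65 at -2.62, STMGP12 at -2.48 from 2 arrays and STMGF70 at -1.64. None of the 6 of these that could be tested on day 1 was called then: their day 1 estimates lay between -0.18 and 0.11 (STMGF70 and STMGB09). Of the P450 clones 5 passed as lower without replicate 2 of day 3.

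Other large falls came in part from clones that share an annotation. All 4 clones of a protein called PPS1, of no stated function, were lower, between -2.83 and -2.69, with STMDP28 at -3.05, -2.66 and -3.01 on the 3 arrays. A clone named gamma tubulin (STMGM17) had -3.81, -3.71 and -3.13, and an acid phosphatase (STMCI91) had -3.30, -3.57 and -3.45. A hypothetical protein (STMCN85) had -3.93, -4.63 and -4.55, against a day 1 estimate of -0.06. Of 12 tested clones under its annotation 5 were lower and 1 higher, and the lowest was at -5.05. Of 3 clones named zeatin O-glucosyltransferase, an enzyme that stores the hormone cytokinin as a sugar conjugate, 2 fell, with STMDV35 at -1.55 and STMCY29 at -1.48. Each of the lower clones here was below 0 on every day 3 array that measured it.

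Among defence proteins the proteinase inhibitors fell most often. Of 22 tested clones 11 were lower and 0 higher (13 and 1 at an unadjusted p under 0.05), which is 50% lower against 4.43% of all tested clones. The list median was -0.52, and it was -0.71, -0.52 and -0.94 on the arrays. Among the 11 is a trypsin inhibitor clone at -0.62, also called lower on day 1 (-1.04). It shares a contig with a photosystem I clone at -0.53, so which gene it reports is not known. The type 2 inhibitor TR8 (STMCP16) had -5.58, -2.83 and -2.76, so replicate 1 lay far below the others, and its estimate was -3.60 (SE 0.47). The metallocarboxypeptidase inhibitor (STMCG57) showed that spread as well, with -4.52, -2.32 and -2.45. Proteinase inhibitor I, a small wound-induced inhibitor of serine proteases, was lower in 3 of 3 clones that lie on different contigs: STMCM05 at -2.56, STMCR35 at -1.82 and STMIU61 at -1.57. The aspartic protease inhibitor STMCQ55 had -2.05, -0.98 and -1.11.

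On day 1 the median of the inhibitor list was -0.01, with 2 clones lower and 0 higher. Of the 22 clones 8 were lower on day 3 than on day 1 and 1 was higher, and the difference was -2.66 for STMCM05, -3.15 for STMCG57 and -2.36 for STMCR35. For STMCP16 it did not pass (-2.34, adjusted p = 0.0536). Cysteine protease inhibitors, Kunitz-type and ethylene-responsive inhibitors were among the 11 clones not called, whose highest estimate was 0.32. With replicate 2 of day 3 left out, 6 inhibitor clones passed.

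The lipoxygenase pathway, which makes jasmonate and leaf volatiles from fatty acids, had 5 lower and 0 higher of 12 tested clones (5 and 1 unadjusted). The 5 make 41.7% of the list, against 4.43% lower among all tested clones, and come from 2 contigs. All 3 clones of 13-lipoxygenase, an early enzyme of that pathway, were lower, between -1.98 and -1.78, with replicate 1 lowest in each, and STMCN05 had -2.50, -1.81 and -1.59. Hydroperoxide lyase, which cuts the lipoxygenase product into volatile aldehydes, had -1.77, -1.40 and -1.75 (STMCD19) and -1.62, -1.46 and -1.38 (STMEL50). The 5-lipoxygenase did not pass, nor did the oxophytodienoate reductases, enzymes of jasmonate synthesis, and the list's highest estimate was 0.33.

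**Figure D3:**
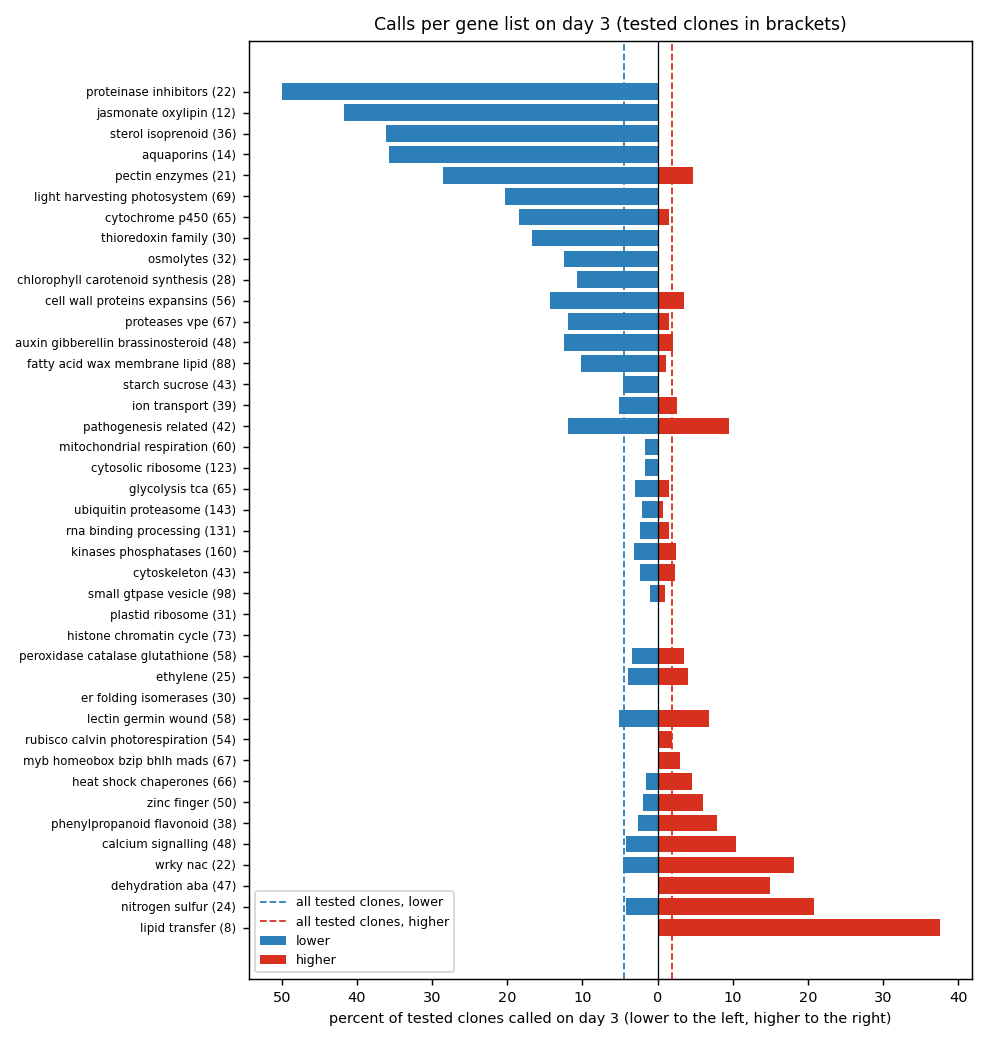
Share of the tested clones of each gene list that was lower (bars to the left) or higher (bars to the right) on day 3, in percent, for lists with at least 8 tested clones, whose number is in brackets. Dashed lines mark the shares among all tested clones, 4.43% lower and 1.93% higher. Proteinase inhibitors reach 50% lower and lipid-transfer proteins 37.5% higher, from 8 clones.

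A chitin-binding lectin and some chitinases fell, other chitinase clones were not called, and pathogenesis-related protein 10 rose. The chitin-binding lectin (STMCQ19) had -6.62, -4.69 and -4.83, and an endochitinase (STMIX82) had -2.52, -2.0 and -1.88. Further endochitinase clones were at -1.48 (STMIS93) and -1.33 (STMED73), and class 1 chitinase STMJI49 at -0.83. Pathogenesis-related protein 10, a small cytosolic protein of defence, had 1.38, 1.60 and 1.25 in STMDW19 and 1.28, 1.37 and 1.21 in STMEY55. Over the pathogenesis-related list 5 clones were lower and 4 higher of 42 (11.9% and 9.5%, against 4.43% and 1.93% of all tested clones). Its counts were 5 and 9 without replicate 1 of day 3, 2 and 2 without replicate 2, and 7 and 9 with arrays scaled to equal spread. A germin-like clone (STMCM83), of the family of extracellular enzymes that act on oxalate and superoxide, had -2.35, -3.23 and -3.28, and its day 1 estimate was -3.88. The list of lectins, germins and wound or disease resistance clones held 3 lower and 4 higher of 58. Its shares were 5.2% and 6.9%, against 4.43% and 1.93% of all tested clones. The highest was a wound-inducible clone (STMIW38) with 0.32, 0.98 and 1.05. Of the list 0 were higher without replicate 2 of day 3, 2 without replicate 3 and 2 without replicate 2 of day 1.

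Some water channel clones fell. Of 14 aquaporin clones 5 were lower and 0 higher (9 and 0 unadjusted), which is 35.7% lower against 4.43% of all tested clones. The list had medians of -0.50, -0.47 and -0.43 on the arrays. The leading clone, named only as similar to aquaporin (STMEA30), had -2.33, -2.08 and -2.05 and an estimate of -2.13 (SE 0.15). Next were STMGW25 at -0.86, STMCS35 at -0.68, the major intrinsic protein clone STMCQ72 at -0.57 and plasma membrane intrinsic protein 2-1 (STMHZ35) at -0.56. These 5 clones lie on 5 contigs. Among the 9 not called the highest estimate was 0.12. Leaving out replicate 2 or 3 of day 3 left 1 and 3 aquaporin clones, and leaving out replicate 2 of day 1 left 3.

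Several wall enzymes fell on both days. Pectin methylesterase (STMIU31), which removes methyl groups from wall pectin, had -2.50, -2.67 and -2.63, and its day 1 estimate was -2.54. Of 21 pectin enzyme clones 6 were lower and 1 higher (28.6% and 4.8%, against 4.43% and 1.93% of all tested clones), with a day 1 count of 9 lower. Those lower on day 3 included pectinesterases STMGF63 (-1.06) and STMJK74 (-0.99). The 4 clones named LEXYL2, a tomato beta-xylosidase, were all lower, between -1.49 (STMIQ06) and -0.96, and their day 1 median was -1.13. Xyloglucan endotransglucosylase XTH7 (STMCV68), which cuts and rejoins wall xyloglucan, had -1.49, -1.18 and -1.15. A xyloglucanase inhibitor (STMJF08) was lower on day 3 (-1.11) and higher on day 1 (0.46).

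Extensins, structural proteins of the wall, split under 1 annotation. Of 5 clones 3 fell, between -1.14 (STMIK90) and -1.05, and 2 rose, STMGX29 with 1.44, 1.54 and 0.40 and STMIA95 with 0.85, 1.35 and 0.78. The 2 that rose had been lower on day 1, at -1.16 and -0.61. In the fit without replicate 2 of day 3, 1 clone of the pectin list passed as lower and 0 clones of the wall protein list passed as higher.

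The largest rise was a cation exchanger. The 3 clones named CAX, proton-coupled exchangers that move calcium and other cations into the vacuole, lie on 1 contig and all were higher. STMHE26 had 3.73, 2.43 and 2.41 (estimate 2.83, SE 0.25, adjusted p = 0.00034), STMDD63 had 2.82, 1.18 and 1.38 and STMII56 had 2.10, 0.87 and 1.14. Replicate 1 was well above the other arrays in each of them. On day 1 they were at -0.56, -0.24 and -0.71, and the last of these was called lower.

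A pair of cyclic nucleotide-gated channels, which let calcium and other cations through the membrane, moved in opposite ways. Channel 4 (STMIT24) had 2.15, 2.01 and 2.52, with a day 1 estimate of 0.12, and channel 6 (STMHZ73) had -1.38, -0.84 and -0.78, with a day 1 estimate of -1.26.

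The 2 tested clones named NHX1, the exchanger that moves sodium into the vacuole in return for protons, lie on 1 contig and both were lower. STMHY71 had -0.68, -0.88 and -0.57 (estimate -0.78, adjusted p = 0.00414) and STMEL10 had -0.75, -0.64 and -1.11 (estimate -0.79, adjusted p = 0.0185), all below 0, and their day 1 estimates were 0.03 and -0.15. Neither passed without replicate 2 of day 3, where the estimates were -0.91 and -0.83. Antiporters of other names and the potassium carriers were not called: the sodium/proton antiporters STMGI59 and STMIA31 were at -0.06 and -0.15, the potassium/proton antiporter STMGH95 at -0.07, and potassium transporters and channels between -0.43 (STMHH37) and 0.20 (STMGY78). A sodium-dicarboxylate cotransporter (STMIS86) was higher on both days, at 0.50 and 0.54. These ion carriers were chosen after their values were seen.

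The ion transport list held 1 higher and 2 lower of 39 clones. These shares, 2.6% and 5.1%, are near those of all tested clones (1.93% and 4.43%). Its words missed 12 tested ion carriers, among them the CAX and NHX1 clones. With these, added after their values were seen, it held 5 higher and 4 lower of 51. Without replicate 2 of day 3, 1 higher and 1 lower clone of the 39 passed.

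A clone named vacuolar ATP synthase subunit B (STMIY89) also fell, with -1.90, -1.34 and -1.56. However, 3 other subunit B clones on 1 of its contigs were not called and reached 0.17. On another contig it lies with a clone of no annotation, which was at -1.71 on day 3 and was called higher on day 1 (1.02). The ratios of STMIY89 also resembled those of clones with unrelated names. An H/ACA ribonucleoprotein clone (STMJM94) had -2.37, -1.54 and -1.68 and a xanthine dehydrogenase clone (STMIX33) had -1.95, -1.49 and -1.77. STMIY89, STMJM94 and STMIX33 were all called higher on day 1 (0.95, 0.85 and 0.96). Whether their probes report 1 transcript was not tested.

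Enzymes of sulfate assimilation were higher on day 3 and lower on day 1. ATP sulfurylase, which activates sulfate, was higher in 3 of 3 clones, with 2.12, 1.20 and 1.27 in STMDV93, 1.34, 0.54 and 0.78 in STMHU37 and 1.34, 0.44 and 0.69 in STMER57. STMHU37 and STMER57 share a contig, so both may report 1 gene. Adenylyl-sulfate reductase, the next enzyme, had 1.90, 0.96 and 1.01 in STMED18 and 1.54, 0.82 and 0.62 in STMES19, which lie on 1 contig. Replicate 1 was the highest of the 3 arrays in every one of these clones. On day 1 the estimates were -0.96, -1.24, -0.91, -1.03 and -1.03 in the same order, each called lower.

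These 5 clones were the only higher ones among 24 of the nitrogen and sulfur list, in which 1 clone was lower. The shares were 20.8% and 4.2%, against 1.93% and 4.43% of all tested clones. Day 3 minus day 1 differences of the 5 clones ran from 1.68 (STMER57) to 2.45 (STMDV93). Without replicate 2 of day 3 the list held 1 higher clone, and without replicate 1 of day 1 it held 3.

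Type-A response regulators, which are switched on by cytokinin and damp its signal, behaved alike. STMII17, named for Arabidopsis ARR3, had 1.52, 1.0 and 0.82, and 2 clones named response regulator 10 had 1.79, 0.75 and 0.81 (STMGL50) and 1.83, 0.85 and 0.53 (STMJL80). Their day 1 estimates were -0.89, -1.20 and -1.15, and all 3 differences between days passed. The other 3 tested response regulators, of the APRR2 or an unnamed type, lay between -0.27 and 0.21. These clones were picked out after their values were seen. An epidermal glycoprotein EP1 clone (STMDF40) also changed sides, with 0.83, 0.77 and 0.84 on day 3 and -1.78, -1.38 and -1.16 on day 1.

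Genes of dehydration and abscisic acid response rose in part. Of 47 tested clones 7 were higher and 0 lower (14 and 5 unadjusted), which is 14.9% higher against 1.93% of all tested clones. The list had medians of 0.01, 0.09 and 0.28 on the arrays. RD22-like clones, named for a dehydration-induced Arabidopsis gene, had 0.78, 1.06 and 0.98 (STMCR18) and 0.75, 0.87 and 0.90 (STMDG60), and 2 of the 8 clones of that annotation passed. Dehydration-responsive element binding protein 3, a transcription factor, had 0.36, 0.80 and 0.90 (STMCY54), and protein phosphatase 2C, a class that holds brakes on abscisic acid signalling, had 0.69, 0.89 and 1.31 (STMGP26). In each of these the lowest array was replicate 1. Without replicate 1 of day 3 the list held 12 higher and 1 lower clones, and without replicate 2 or 3 it held 0 and 4 higher ones, and 3 without replicate 1 of day 1. With arrays scaled to equal spread it held 12 higher ones.

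Stress transcription factors and calcium sensors rose in part as well. Ethylene response factor 5 (STMIK39) had 0.72, 2.0 and 1.71, and its day 1 estimate was 2.29. WRKY factors, a plant family that acts in defence and stress, had 0.49, 1.57 and 1.23 (STMCN79), 0.55, 1.22 and 1.07 (STMFB71) and 0.32, 1.36 and 0.68 (STMJB09). NAC6 (STMEZ82) was measured on replicates 1 and 2 only, at 0.87 and 1.18. Of 22 WRKY and NAC clones 4 were higher and 1 lower (18.2% and 4.5%, against 1.93% and 4.43% of all tested clones). Without replicate 2 of day 3 0 passed.

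Calmodulin-like protein 1 (STMER65), a calcium sensor, had 0.77, 1.38 and 1.33, and a calcium-binding clone named for an olive pollen allergen (STMHY91) had 1.15, 1.11 and 1.0. The calcium signalling list held 5 higher and 2 lower of 48 (10.4% and 4.2%, against 1.93% and 4.43% of all tested clones). Without replicate 2 of day 3 the list held 2 and 0. A CCR4-associated factor (STMDD59), of the complex that shortens mRNA tails, had 1.07, 2.16 and 2.74, and a hypothetical protein (STMEK04) had 1.25, 3.12 and 3.55. In STMIK39, STMDD59, STMEK04 and the WRKY clones replicate 1 was the lowest array, while in the CAX and sulfate clones it was the highest.

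Osmolyte enzymes fell or did not pass. Arginine decarboxylase 1 (STMDE91), an entry to polyamines, had -1.70, -1.33 and -1.20, and a clone like betaine aldehyde dehydrogenase (STMIW95), which in other plants makes glycine betaine, had -1.08, -1.83 and -1.20. Of 32 clones in the list 4 were lower and 0 higher (12 and 1 unadjusted), a lower share of 12.5% against 4.43% of all tested clones. Lipid-transfer proteins, which carry lipids to the cuticle and act in defence, had 3 higher and 0 lower of 8 tested clones (3 and 0 unadjusted). That is 37.5% higher, against 1.93% of all tested clones. All 3 were under 1 annotation: STMGR44 had 2.25, 1.66 and 1.67 and the lowest of the 3 was at 0.81. Without replicate 2 of day 3, 1 osmolyte clone and 2 lipid-transfer clones passed, and without replicate 1 7 osmolyte clones were lower. Without replicate 1 of day 1 the osmolyte count was 2, and with arrays scaled to equal spread it was 8.

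Hormone, redox and protein-turnover clones gave smaller groups of falls. Of 30 thioredoxin-family clones, whose products reduce disulfides in other proteins, 5 were lower and 0 higher (5 and 0 unadjusted). That is 16.7% lower, against 4.43% of all tested clones. They were led by a RING-type, thioredoxin-related clone (STMDH35) with -1.89, -2.34 and -2.06 and by plastid thioredoxin M-type 3 (STMIC95) with -1.16, -1.39 and -1.10. Both differed from day 1, by -1.96 and -0.89. Of the family 2 passed without replicate 2 of day 3, 9 without replicate 1, and 3 without replicate 1 or 2 of day 1.

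Of 67 protease clones 8 were lower and 1 higher (11.9% and 1.5%, against 4.43% and 1.93% of all tested clones). The lower ones were subtilisin-like proteases, serine carboxypeptidases and an aspartyl protease, with STMCX21 at -1.91, -1.75 and -1.50 and STMCR17 at -0.78, -1.24 and -1.02. The higher one was vacuolar processing enzyme-1a (STMHL75), a protease of the vacuole, with 1.16, 0.97 and 0.56 on day 3 and 1.67, 2.40 and 2.11 on day 1. Leaving out replicate 2 of day 3 left 3 lower protease clones.

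Among 48 clones of a list on auxin, gibberellin, cytokinin and brassinosteroid 6 were lower and 1 higher. These shares were 12.5% and 2.1%, against 4.43% and 1.93% of all tested clones. The higher one was cytokinin-O-glucosyltransferase 3 (STMHX28), with 0.90, 0.51 and 0.79, whereas 2 of the 3 zeatin O-glucosyltransferases above, which are outside this list, were lower. An auxin-amidohydrolase (STMCM67), of the enzymes that free auxin from its stored conjugates, had -1.66, -1.05 and -1.57, and gibberellin 7-oxidase (STMJM50) had -1.27, -0.73 and -1.58. The list held 3 lower clones without replicate 2 of day 3 and 3 without replicate 1 of day 1. A second 1-deoxyxylulose 5-phosphate synthase (STMCY65), of the plastid route to isoprenoids, had -1.52, -1.58 and -1.87, against a day 1 estimate of -0.02. A DnaJ chaperone (STMIF70) was lower on day 3, with -1.74, -0.82 and -0.83, and higher on day 1, at 1.34. No call was made in 73 histone and cell cycle clones or in 30 clones of folding factors by limma. At an unadjusted p under 0.05 the first list held 2 lower and 4 higher clones and the second 0 and 4.

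Some light-harvesting clones fell. Of 69 clones of light harvesting and photosystems 14 were lower and 0 higher (28 and 1 unadjusted), which is 20.3% lower against 4.43% of all tested clones. The list had medians of -0.26, -0.30 and -0.38 on the arrays, and the day 1 median was -1.03. The difference between days passed for 33 clones that were higher on day 3 than on day 1 and for 1 that was lower. Of 11 clones named light-harvesting protein of photosystem II, 7 were lower, led by STMCY82 with -1.30, -1.0 and -0.92, and STMIU17 had -0.83, -0.66 and -0.93. Leaving out replicate 1, 2 or 3 of day 3 gave 24, 0 and 8 lower clones of the list, and leaving out replicate 1 or 2 of day 1 gave 9 and 8. The light-harvesting proteins bind chlorophyll and pass light energy to the photosystems.

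Carbon fixation and plastid ribosomes were split by replicate 1. The list of Rubisco, Calvin cycle and photorespiration had medians of 0.91, -0.28 and -0.30 on replicates 1, 2 and 3, and plastid ribosomal proteins had 0.68, -0.01 and -0.17. Of 54 carbon fixation clones 0 were lower and 1 higher (2 and 4 unadjusted), and the higher share of 1.9% is near the 1.93% of all tested clones. Without replicate 1 of day 3 16 were lower and 2 higher. The 1 higher clone was named Rubisco activase (STMCF73, 1.19, 1.04 and 1.11), but it shares a contig with the pathogenesis-related clone STMEY55, and the other 5 activase clones did not pass. Of 31 plastid ribosomal clones 0 passed with limma (1 unadjusted, lower). Of 123 cytosolic ribosomal clones 2 were lower and 0 higher (4 and 29 unadjusted), with a median of 0.20. The lower share of the cytosolic list, 1.6%, is below that of all tested clones (4.43%). The cytosolic count was 3 lower and 5 higher with arrays scaled to equal spread, and leaving out 1 array gave 0 to 1 lower and 0 to 2 higher.

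Some clones had replicate 1 clearly against the others. Counting those in which all 3 ratios were beyond 0.5 and replicates 2 and 3 had the other sign, there were 24, of which 22 were higher on replicate 1, and 20 of those 22 were called lower on day 1. Among them were Rubisco small subunit, carbonic anhydrase, glyceraldehyde-3-phosphate dehydrogenase and the 22 kDa photosystem II protein. What set replicate 1 apart in these genes was not tested.

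**Figure D4:**
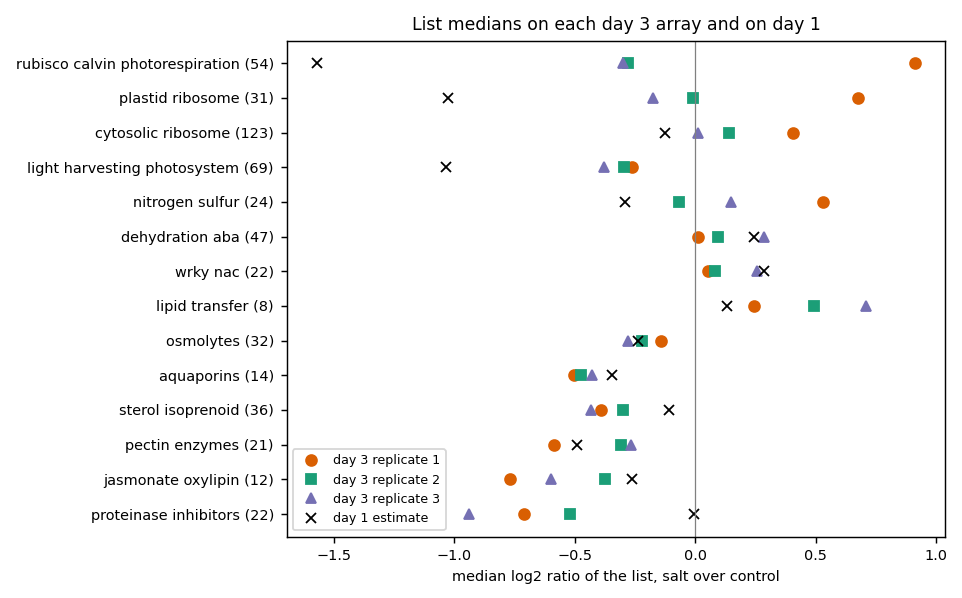
Median log2 ratio (salt over control) of 14 gene lists on each day 3 array (coloured symbols) and of their day 1 estimates (crosses), with the number of tested clones in brackets. Replicate 1 lies apart for carbon fixation (0.91 against -0.28 and -0.30) and plastid ribosomes (0.68 against -0.01 and -0.17), while the 3 arrays lie close together for aquaporins and sterol enzymes.

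Set against day 1, the day 3 response shared part of its clones. Both days share the dye term of the fit and no RNA. Of the 399 lower clones of day 3 that were also tested on day 1, 178 were lower then too, which is 44.6% of them and 17.8% of the 1002 clones lower on day 1 that were tested on day 3. On day 1 itself 10.4% of tested clones were lower and 8.2% higher. Of the 174 higher clones 91 were higher on day 1, which is 52.3% of them and 11.6% of 782. The opposite sign on day 1 was called in 15 of the lower and 23 of the higher clones, and these 23 include the sulfate, response regulator and extensin clones above. Across 9028 clones tested for the difference, 451 were lower on day 3 than on day 1 (5%) and 560 were higher (6.2%). Leaving out 1 array moved these counts to between 165 and 524 lower and between 128 and 683 higher. Some clones called lower on day 1 were not called on day 3. The GAST1-like clone STMJC16 had -1.29, -0.09 and -0.38 on day 3, against -4.88, -3.82 and -3.73 on day 1, and oxygen-evolving enhancer protein 1 (STMCP64) had -0.02, -0.04 and -0.07 on day 3, against -1.73, -1.66 and -1.69 on day 1.

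**Figure D5:**
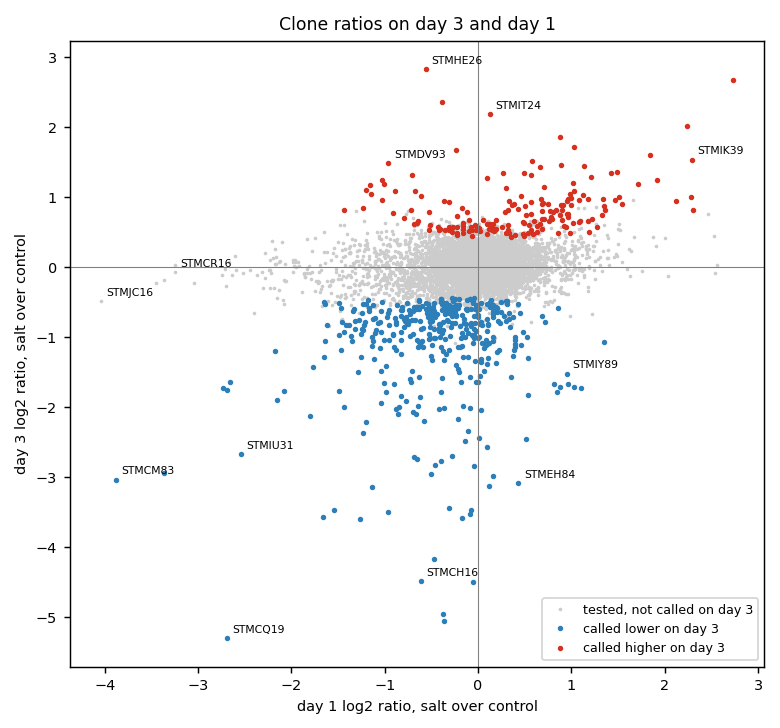
Day 3 estimate (vertical axis) against day 1 estimate (horizontal axis) of each tested clone, both as log2 ratios of salt over control. Blue points were called lower on day 3, red points higher and grey points neither. STMCH16 (-4.48 on day 3, -0.61 on day 1) and STMEH84 lie near 0 on the horizontal axis, while STMIU31 and STMCM83 lie far from 0 on both.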

How the data were processed

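Ratios of salt over control in potato leaf RNA came from 6 two-colour cDNA arrays, 3 of day 3 and 3 of day 1, labelled as biological replicates with at least 15 µg of RNA at an RNA integrity number of 7 or more. The authors' deposited tables hold 1 value per clone and array, read as a log2 ratio, and a p-value per day from the authors' one-sample test. Per the labels, control is the reference channel; the background correction, the within-array normalization, the log base and whether dye-swapped ratios were turned are not stated in any source used here. The deposited table with annotations holds the same 10499 ratios in columns that mix values with text for missing ones. No intensities were used here, so a filter on dim spots could not be tried.

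The ratios were fitted with limma 3.58.1 (R 4.3.3), over all 6 arrays, with 1 coefficient per day plus a dye term, which leaves 3 residual degrees of freedom in clones with all values. A clone was tested with at least 2 day 3 arrays and an estimable dye term, and 40 members had none. In limma's test the dye term had an unadjusted p under 0.05 in 1613 of the 9032 tested clones and an adjusted p under 0.05 in 0. The fit takes all arrays as sharing 1 orientation, so these counts do not settle it. Where an array lacked a clone, it was left out for that clone, and the dye term then rests more on the other day. A call is an adjusted p under 0.05 (Benjamini-Hochberg over all tested clones). The p-values rest on the spread between arrays within both days, which limma moderates across clones. Differences between plants and between hybridizations cannot be separated in that spread. The fit was tested on simulated data. Tables and figures used Python 3.11.15, pandas 2.3.3 and matplotlib 3.10.9.

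Gene lists are word patterns applied to the annotations. The members and lists were chosen with earlier results of these data known. Clones were named by rule: the 20 largest rises and falls, up to 4 per list by p, annotations with at least 3 tested clones of which at least 2 passed, and the 10 smallest p per direction between days. Apart from the repeated annotations, only the clone with the smallest p was kept per annotation before ranking. Of 116 clones named, 29 lie outside the naming rule and were chosen after their values were seen. Replicate numbers were checked as pairs: deviations of same-numbered arrays correlated at 0.046, 0.596 and 0.451 over 7632 clones. Differently numbered arrays were not compared in this way, and replicate 2 also shares its swapped dyes, so the check does not settle the pairing. The main fit does not take the numbers as pairs. Clone sequences were not used here.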

Additional observations from a re-analysis of the deposited data

Results flagged for a closer look

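Each result here differed between the days in limma's test of day 3 minus day 1 (adjusted p under 0.05). The days used different plants, so the difference is between sets of plants. Over 9028 clones tested, 451 were lower on day 3 than on day 1 and 560 were higher. All values that follow are day 3 minus day 1 on the log2 scale, and their cause was not tested.

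Sterol enzyme, Ghfe1, rhamnosyltransferase and GABA transaminase clones were lower on day 3 than on day 1, with differences of -3.13 for STMGG42, -3.87 for STMCH16, -1.65 for STMEA40, -1.13 for STMEB65, -1.20 for STMEL05, -1.47 for STMDP65, -1.42 for STMCQ53, -0.86 for STMFA04, -1.03 for STMCS13, -3.51 for STMEH84 and -1.01 for STMCG71. Among defence clones the differences were -2.60 for STMCQ19, -3.15 for STMCG57, -2.66 for STMCM05, -2.36 for STMCR35, -1.92 for STMIU61, -1.82 for STMCQ55, -1.44 for STMIX82, -0.78 for STMIS93, -0.96 for STMED73, -1.33 for STMCN05 and -0.94 for STMCD19. Other clones that were lower on day 3 than on day 1 differed by -3.39 for STMCG85, -3.23 for STMGB09, -2.23 for STMDE16, -2.34 for STMGP12, -1.46 for STMGF70, -4.43 for STMCN85, -3.41 for STMGM17, -2.53 for STMCI91, -2.37 for STMDP28, -1.54 for STMCY29 and -1.57 for STMDV35. Further negative differences were found for redox, hormone, osmolyte, wall, wound and NHX1 clones, with -1.96 for STMDH35, -0.89 for STMIC95, -1.17 for STMCM67, -1.61 for STMCY65, -1.16 for STMDE91, -1.23 for STMIW95, -1.56 for STMJF08, -1.17 for STMHL75, -0.81 for STMHY71 and -1.49 for STMIW38.

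Clones that were lower on day 3 and higher on day 1 differed by -2.47 for STMIY89, -2.63 for STMJM94, -2.62 for STMIX33 and -2.42 for STMIF70. Transport and sulfate clones had positive differences, with 3.39 for STMHE26, 1.92 for STMDD63, 2.02 for STMII56, 2.06 for STMIT24, 2.45 for STMDV93, 2.08 for STMHU37, 1.68 for STMER57, 2.28 for STMED18 and 2.00 for STMES19. The response regulators, extensins and EP1 changed sides as well, with 1.99 for STMII17, 2.30 for STMGL50, 2.19 for STMJL80, 2.33 for STMGX29, 1.64 for STMIA95 and 2.25 for STMDF40. The remaining positive differences were 0.77 for STMHX28, 0.94 for STMDW19, 0.86 for STMEY55, 0.83 for STMCF73, 0.98 for STMGR44, 0.55 for STMIU17, 1.65 for STMCP64 and 3.56 for STMJC16.

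No group of 4 or more arrays was available, so single arrays could not be tested as outliers within a group.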

How the results depend on the processing

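On day 3, 174 clones were higher and 400 lower. The higher clones numbered 78 with the day 3 arrays alone and no dye term, 94 with them and a dye term, 330 with arrays scaled to equal spread, and 335 at an adjusted p under 0.1. The lower clones numbered 265 with the day 3 arrays alone and a dye term. With the sign of replicate 2 turned, 0 passed either way. The authors' deposited p-values put 444 members higher under 0.05, and after Benjamini-Hochberg 1 higher and 0 lower. Leaving out 1 array gave 16 to 323 higher and 109 to 602 lower clones. For the difference between days, 690 were lower at an adjusted p under 0.1, and leaving out 1 array gave 128 to 683 higher and 165 to 524 lower; fits of day 3 alone cannot give it. Other alternatives (no dye term, median centring, clones on all arrays) kept every one of these counts within 1.5 times.

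With the replicate number as a replicate block in place of the dye term, 280 clones were higher and 497 lower on day 3, and 700 higher and 547 lower against day 1. Of the 574 calls, 550 were shared. The numbers are not taken as pairs, and replicate 1 of day 3 correlated with the day 1 arrays at 0.031, -0.086 and 0.006.

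Of 116 named clones, 64 kept their side of the threshold in every alternative that gave a value, and without replicate 2 of day 3 50 lost the call. Without that array the sodium/proton antiporter clone STMGI59, which was not called, had an estimate of 0.24 in place of -0.06, and over all left-out arrays it ran from -0.19 to 0.24. Of the 574 calls 125 were shared without replicate 2, 526 without replicate 1 and 403 without replicate 3. Replicate 2 is the array on which salt was in Cy5, and without it the dye term came from the day 1 arrays alone. The day 3 estimates are then less precise, and how much of the loss this accounts for was not tested. Ratios without intensities leave the signal over background unknown.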
